A study of Homo sapiens with 4 samples.

Results

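The sites described here were 2963 places in the genome of SK-N-MC cells where a FLI1 peak lay inside or across acetylated chromatin, away from promoters, and met no SSRP1 peak. They were 8.16% of the 36305 FLI1 peaks on chromosomes 1 to 22 and X (95% interval 7.88 to 8.45). SK-N-MC is an established Ewing sarcoma cell line, and the cells were grown untreated in serum-containing medium. The libraries were 1 ChIP-seq library each for FLI1, for SSRP1 and for histone H3 acetylated at lysine 27 (H3K27ac), with 1 input library against which the authors called peaks. The line was the only model and no target had a second library, so no p-value was computed. Intervals on shares are 95% exact binomial (Clopper-Pearson) intervals that cover counting error only.

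Ewing sarcoma cells carry a chromosomal fusion that joins EWSR1 to an ETS family gene, usually FLI1. The fusion protein binds single ETS sites, whose core is GGAA, and runs of GGAA, and it can open chromatin and recruit acetyltransferases to distal elements. H3K27ac marks active enhancers and promoters. SSRP1 is a subunit of FACT, a histone chaperone that takes apart and rebuilds nucleosomes during transcription and replication and that is found mostly where genes are transcribed. Acetylated chromatin with FLI1 far from a gene start is the usual picture of a FLI1-bound enhancer.

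The sites were chosen by the peak calls themselves. A FLI1 peak was taken when it lay more than 2.5 kb from every protein-coding transcription start site (TSS), when it shared at least 20% of either peak with an H3K27ac peak, and when it did so with no SSRP1 peak. Peaks with 4 or more tandem copies of GGAA were left out. Of 29689 distal FLI1 peaks, 5634 met H3K27ac, and 3350 of these met no SSRP1. The repeat rule removed 387 of them. Over all FLI1 peaks, 28.4% met H3K27ac and 17.2% met SSRP1. The comparisons below are with the 2094 distal acetylated FLI1 peaks that did meet SSRP1 and with the 22702 distal FLI1 peaks that met neither, both also without such repeats. Among the 5057 acetylated distal FLI1 peaks, those without SSRP1 were 58.6% (57.2 to 59.95). A site without SSRP1 is one where no SSRP1 peak was called, which does not measure how much SSRP1 was there.

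Some sites lay close to the limits of the rule. Those between 2.5 and 3 kb from a TSS numbered 54, and 60 otherwise similar peaks lay between 2 and 2.5 kb. An SSRP1 peak touched 91 of the sites by less than 20%, while 64 of the sites with SSRP1 shared only 20 to 30%. H3K27ac shared 20 to 30% with 47 sites and touched 81 of the peaks with neither by less than 20%. The longest tandem run held 3 copies of GGAA at 10 sites, 2 copies at 191, 1 copy at 2573 and no copy at 189. Just outside this limit, 13 otherwise similar peaks held 4 copies and 9 held 5.

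The middle 200 bp of 5 sites are shown because they span the sequence found at these peaks, from several ETS motifs to none. They are read 5′ to 3′ on the plus strand of the GRCh37 reference (hg19). Capitals mark 3 kinds of match, on either strand. The first is the ETS core, which is CCGGAAG or the same word ending in A. The second is the looser ETS word GGAAGT. The last is the AP-1 site TGAGTCA. None of the windows touches an exon of a protein-coding gene, and exons of noncoding genes were not checked.
CRYBA4 downstream, chr22:27068763-27068962: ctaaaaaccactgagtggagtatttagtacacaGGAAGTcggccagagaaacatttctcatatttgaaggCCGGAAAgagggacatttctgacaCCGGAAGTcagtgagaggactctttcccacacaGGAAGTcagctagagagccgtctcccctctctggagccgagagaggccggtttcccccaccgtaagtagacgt
SMAD3 intron, chr15:67467838-67468037: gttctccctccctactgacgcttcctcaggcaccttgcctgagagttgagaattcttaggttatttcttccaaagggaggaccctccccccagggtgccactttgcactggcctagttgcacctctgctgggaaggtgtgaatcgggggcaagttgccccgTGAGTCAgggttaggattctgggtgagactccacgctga
NQO2 downstream, chr6:3024156-3024355: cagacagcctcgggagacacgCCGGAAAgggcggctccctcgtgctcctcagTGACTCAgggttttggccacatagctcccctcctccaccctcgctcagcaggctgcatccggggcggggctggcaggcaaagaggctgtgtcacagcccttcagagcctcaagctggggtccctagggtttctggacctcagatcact
PDIA5 intron, chr3:122876380-122876579: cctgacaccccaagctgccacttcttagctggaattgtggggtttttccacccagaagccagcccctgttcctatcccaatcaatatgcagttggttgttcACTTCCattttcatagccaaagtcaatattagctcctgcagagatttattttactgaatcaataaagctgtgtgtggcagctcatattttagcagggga
POU3F1 upstream, chr1:38516416-38516615: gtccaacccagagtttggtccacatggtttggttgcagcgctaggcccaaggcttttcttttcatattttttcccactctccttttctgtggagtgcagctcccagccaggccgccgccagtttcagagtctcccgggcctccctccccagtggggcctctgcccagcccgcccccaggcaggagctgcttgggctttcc
The window near CRYBA4, a lens crystallin gene 50.5 kb away, has ETS cores at positions 71 and 95 and GGAAGT at 34, 97 and 128, counted from 1 at its first base. Its FLI1 peak was 862 bp wide. The SMAD3 window, in an intron of that TGF-beta signal transducer, has an AP-1 site at 162. The window near NQO2, a quinone reductase gene, has an ETS core at 22 and an AP-1 site at 53. The PDIA5 window, in a gene for a protein disulfide isomerase, has GGAAGT at 102 and lies in an acetylated domain with 5 of the sites. The POU3F1 window, 3.73 kb upstream of that neural POU-domain factor gene, has none of these motifs. These windows are not typical of all sites. An ETS core and an AP-1 site together were in 8 of the 2963 windows, 0.270%. None of the ETS core, GGAAGT and tandem GGAA pairs was in 77.8%.

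FLI1 peaks were narrower at the sites without SSRP1 than at those with it, and wider than at FLI1 peaks without either mark. The median width was 311 bp (quartiles 253 and 413.5, range 227 to 1398) at the sites without SSRP1, against 453.5 bp (313.25 and 640.75) with SSRP1 and 263 bp (228 and 321) with neither. The quartile ranges overlapped. Several summits within 1 FLI1 interval were listed for 4.45% of the sites (3.74 to 5.26), against 14.995% (13.5 to 16.6) with SSRP1 and 1.14% (1.00 to 1.28) with neither. Peaks of at most 230 bp, near the narrowest in the list, were 12.2% of the sites, against 4.63% with SSRP1 and 26.8% with neither. Width enters an overlap rule, since a wider interval can meet another more easily, so these values describe the classes and test nothing.

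**Figure D1:**
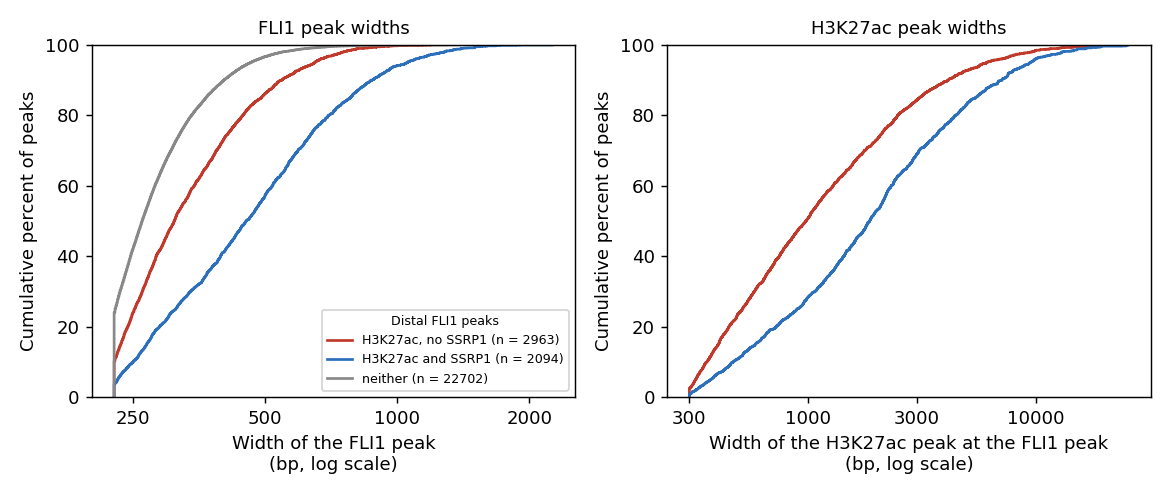
Cumulative percent of peaks by FLI1 peak width (left) and by H3K27ac peak width (right), in bp on log axes, for the distal classes. The curve of the sites without SSRP1 lies between the others for FLI1. The sites without SSRP1 had a median FLI1 width of 311 bp, against 453.5 bp with SSRP1 and 263 bp with neither, and a median H3K27ac width of 977 bp, against 1856 bp with SSRP1.

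The acetylated regions around these sites were also narrower. The H3K27ac peak had a median width of 977 bp (quartiles 513 and 2111, range 300 to 25447), against 1856 bp (890 and 3708) at the sites with SSRP1. Among acetylated distal FLI1 peaks, the share without SSRP1 was 74.6% (72.5 to 76.5) for FLI1 peaks of 200 to 300 bp and 66.6% for those of 300 to 400 bp. It was 49.4% from 400 to 600 bp, 30.9% from 600 to 900 bp and 8.49% (5.11 to 13.1), or 18 of 212 peaks, above 900 bp. By H3K27ac width the share was 74.97% up to 500 bp and 39.5% (36.1 to 43.0) above 4000 bp. The share without SSRP1 was thus lower in every wider bin of either mark.

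SSRP1 was often near even though it did not share the FLI1 peak. The median gap to the nearest SSRP1 peak was 6.69 kb (quartiles 1.14 and 35.2), against 41.4 kb for FLI1 peaks with neither mark. An SSRP1 peak lay within 1 kb of 23.7% of the sites (22.1 to 25.2), against 2.85% of those with neither, and within 10 kb of 56.1%, against 19.7%. The nearest SSRP1 peak was over 100 kb away for 11.4% of the sites, against 28.1% of those with neither. Over all FLI1 peaks, which include those that met SSRP1, the shares were 23.9% within 1 kb, 39.6% within 10 kb and 20.7% over 100 kb. The share of the sites within 1 kb was thus near that of all FLI1 peaks. For 645 sites, 21.8% (20.3 to 23.3), the same H3K27ac peak itself met an SSRP1 peak by the overlap rule. These are called sites with SSRP1 elsewhere, although such an SSRP1 peak could touch the FLI1 peak by less than the minimum share. For 78 sites, 2.63% (2.09 to 3.27), the H3K27ac peak reached into the 2.5 kb window of a TSS, against 7.55% (6.45 to 8.76) of the sites with SSRP1. The H3K27ac peak did neither at 2293 sites, 77.4%.

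Most sites were the only one of their kind in their acetylated region, and another FLI1 peak of any kind was often near. They lay in 2787 H3K27ac peaks, of which 2640 held 1 site, 126 held 2, 16 held 3, 2 held 4 and 3 held 5. The FLI1 peak was wholly inside its H3K27ac peak at 66.8% of the sites (65.1 to 68.5), against 74.98% (73.1 to 76.8) with SSRP1. Its middle lay a median 44.3% of the way from the centre of the H3K27ac peak to its edge, against 39.9% with SSRP1. Another FLI1 peak lay within 10 kb of 72.5% of the sites (70.8 to 74.1), against 78.7% with SSRP1 and 41.7% with neither.

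The sites were divided between introns and intergenic DNA. By their midpoints, 42.2% (40.4 to 44.02) were in introns of protein-coding genes and 54.8% (53.0 to 56.6) were between such genes, while 36 were in coding exons and 53 in untranslated exons. Introns held 41.7% (39.6 to 43.9) of the sites with SSRP1 and 46.2% (45.6 to 46.9) of those with neither. The median distance to the nearest protein-coding TSS was 38.6 kb, against 28.3 kb with SSRP1 and 40.1 kb with neither. Within 10 kb of a TSS lay 17.2% of the sites (15.8 to 18.6), against 24.02% (22.2 to 25.9) with SSRP1 and 15.3% with neither. The nearest noncoding TSS was that of a long noncoding RNA (lncRNA) and lay within 2.5 kb at 11.2% of the sites (10.1 to 12.4). This share was 16.0% (14.4 to 17.6) with SSRP1 and 5.05% with neither. A lncRNA start farther off than another noncoding start was not counted. The rule used only protein-coding starts, so sites near noncoding starts were kept.

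ETS sequence was more frequent under the sites than in nearby DNA, yet most had no ETS core. In the 200 bp window centred on the peak, the ETS core was present at 6.21% of the sites (5.37 to 7.14), 8.40% (7.25 to 9.68) of those with SSRP1 and 2.29% (2.10 to 2.49) of those with neither. It was present at 5.60% of all FLI1 peaks. The same windows moved by 10 kb held it at 1.55% for the sites (1.14 to 2.07), 1.91% with SSRP1 and 1.07% with neither. The moved windows were poorer in G and C, with a median of 47.5% against 55.5% in the windows of the sites, and the ETS core contains a CpG. The part of base composition in this difference was not tested. The cyclic AMP response element TGACGTCA, another word with a CpG, was in 0.405% of the sites (0.209 to 0.706). It was in 0.101% of the moved windows (0.0209 to 0.296). Its ratio of 4 equals that of the ETS core but rests on 12 windows of sites and 3 moved windows. Other searched words with a CpG had lower ratios at the sites. They were 1.24 for an E-box word, 1.89 for the E2F word and 1.975 for the GC box, kinds of motif described below. GGAAGT, a looser ETS word, was in 15.02% of windows (13.8 to 16.4) and 10.8% of moved ones, while the share in FLI1 peaks with neither was 10.1%, against 10.5% moved. Tandem pairs of GGAA were in 3.75% of the sites (3.09 to 4.49), against 4.39% with SSRP1 and 1.89% with neither, and 3 tandem copies were in 5 sites. None of the ETS core, GGAAGT and GGAA pairs was found at 77.8% of the sites (76.3 to 79.3), against 74.2% with SSRP1 and 86.7% with neither. Longer tandem runs were removed by the rule, so their absence is no result.

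**Figure D2:**
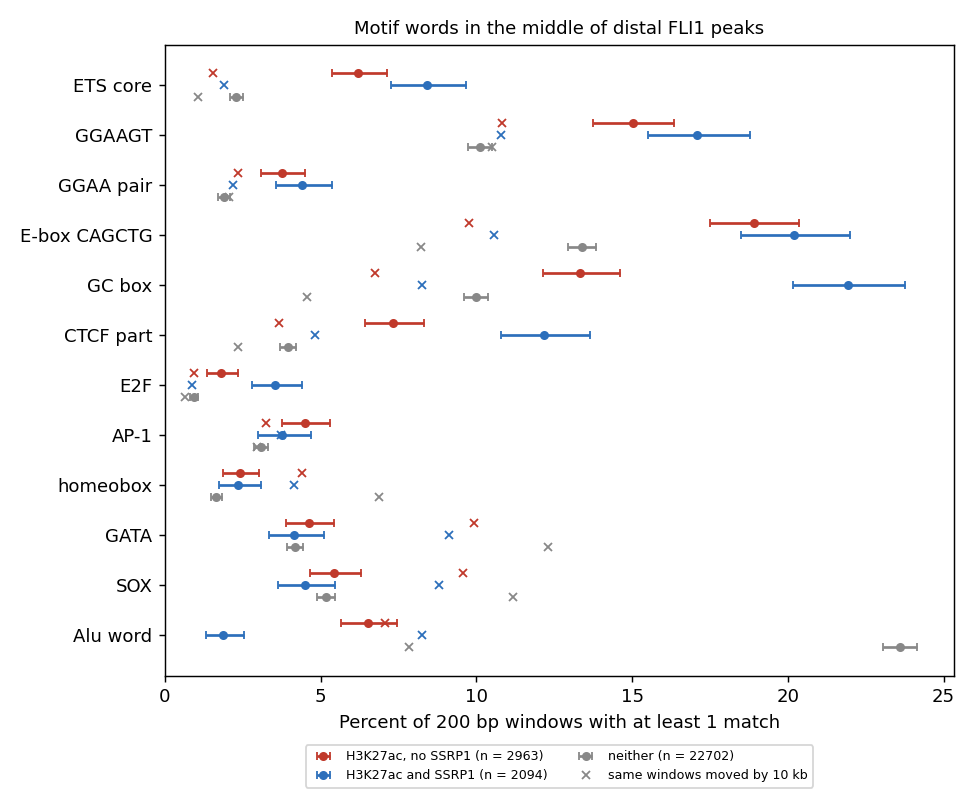
Percent of 200 bp windows with each motif (horizontal axis), by class: points with 95% exact binomial intervals, and crosses for the same windows moved by 10 kb. The ETS core was in 6.21% of the sites without SSRP1, against 8.40% with SSRP1 and 2.29% with neither.

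The ETS core was concentrated at the middle of the peaks. In bins of 50 bp, it was found at 1.89% and 1.96% of the sites on either side of the centre. In the bins 450 to 500 bp away it was at 0.270% on the side of lower coordinates and 0.337% on the other. The 0.270% was the lowest value of any bin at the sites. The central bins held it at 2.39% and 2.67% of the sites with SSRP1, and at 0.634% and 0.648% of those with neither. CAGCTG, an E-box bound by basic helix-loop-helix factors, was in 5.43% and 5.26% of the central bins of the sites. It was in 3.34% and 2.94% of those outer bins.

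**Figure D3:**
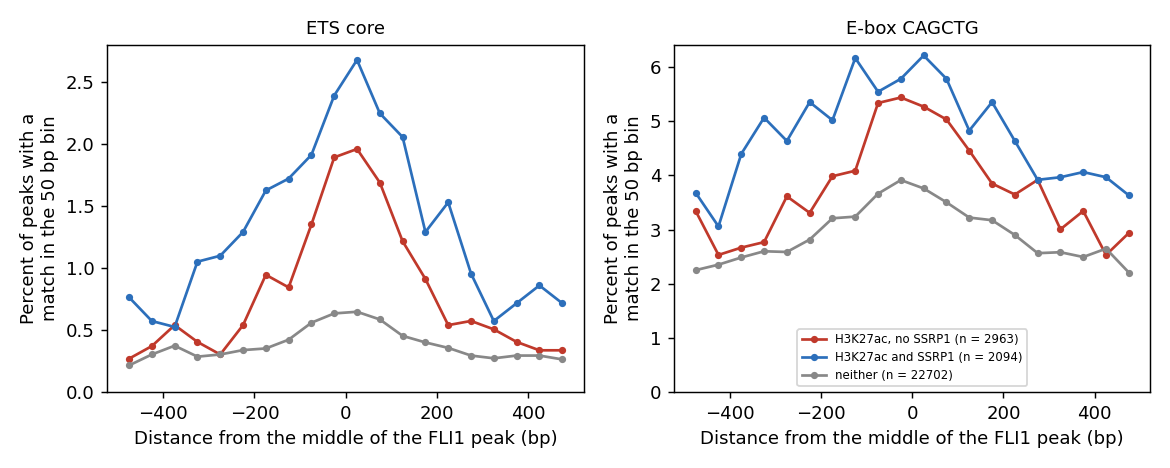
Percent of peaks with the ETS core or CAGCTG in each 50 bp bin, by distance from the peak centre (bp). At the sites without SSRP1 the ETS core was in 1.89% and 1.96% of the bins next to the centre. It was in 0.270% of the leftmost bin, the lowest value, and 0.337% of the rightmost.

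Other motifs were compared in the same 200 bp windows. CAGCTG was in 18.9% of windows (17.5 to 20.4), against 20.2% (18.5 to 21.99) with SSRP1 and 13.4% (12.95 to 13.8) with neither, and in 9.75% of moved windows. AP-1 sites, bound by FOS and JUN proteins, were in 4.49% (3.77 to 5.30), against 3.77% (2.998 to 4.68) with SSRP1 and 3.09% (2.87 to 3.33) with neither, and in 3.24% of moved windows. Over whole peaks, which differ in width between the classes, CAGCTG was in 29.1% of the sites, 40.9% of those with SSRP1 and 18.6% of those with neither, and AP-1 in 7.96%, 8.79% and 4.71%. The sign of the AP-1 difference from the sites with SSRP1 thus depended on the window. RUNX words (TGTGGTT) were in 3.95%, against 3.96% with SSRP1 and 2.93% with neither. TEAD words (GGAATGT) were in 2.63%, against 3.30% and 1.76%. The GATA word AGATAA was in 4.62% of the windows, against 9.92% of moved ones. The SOX word ACAATG was in 5.43%, against 9.58% of moved windows. The homeobox word TAATTA was in 2.40%, against 4.39% of moved windows. These last words are rich in A and T, and the median GC content was 55.5% in the windows of the sites and 47.5% in the moved ones.

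Motifs rich in G and C were less frequent than at the sites with SSRP1. The GC box (GGGCGG), bound by SP and KLF factors, was in 13.3% of the sites (12.1 to 14.6), against 21.9% (20.2 to 23.8) with SSRP1 and 9.98% with neither. AGGGGGC, a stretch of the motif of the insulator protein CTCF, was in 7.32% (6.41 to 8.32), against 12.2% (10.8 to 13.7) and 3.95%. The E2F word (GCGGGAA), bound by cell cycle regulators, was in 1.79% (1.34 to 2.33), against 3.53% (2.78 to 4.42) and 0.934%. With 10 strata of FLI1 peak width, the odds ratio of the sites without SSRP1 to those with it was 0.562 (0.480 to 0.659) for the GC box, 0.600 (0.490 to 0.735) for the CTCF stretch and 0.536 (0.366 to 0.787) for E2F. For the ETS core it was 0.855 (0.679 to 1.08), for CAGCTG 0.945 (0.811 to 1.10) and for AP-1 1.14 (0.846 to 1.54), whose intervals all include 1. Without strata that of the ETS core was 0.722 (0.582 to 0.894), which does not include 1. Median GC content moved with these differences: it was 55.5% at the sites without SSRP1, against 59.25% with SSRP1 and 54.0% with neither. With strata of GC content in place of width, the odds ratio was 0.963 (0.812 to 1.14) for the GC box, 0.754 (0.515 to 1.10) for E2F and 0.771 (0.630 to 0.943) for the CTCF stretch. It was 1.02 (0.813 to 1.29) for the ETS core, 0.843 (0.720 to 0.985) for GGAAGT, 0.699 (0.499 to 0.978) for TEAD and 0.812 (0.674 to 0.978) for the NFI half-site TTGGCA.

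A word of the Alu repeat was more frequent without SSRP1 and far more so without acetylation. Alu elements are the commonest short interspersed repeats of primate genomes. The OTX word TAATCC, bound by OTX homeodomain factors, was in 10.8% of the sites (9.70 to 11.97), against 5.16% (4.25 to 6.19) with SSRP1 and 29.97% (29.4 to 30.6) with neither. Because TAATCC is also contained in the Alu sequence, the word GGATTACAG, which contains its reverse complement, was counted after these values were seen. It was in 6.51% of the sites (5.65 to 7.46), against 1.86% (1.33 to 2.54) and 23.6% (23.04 to 24.2), with 7.05%, 8.26% and 7.85% in the moved windows. The odds ratio against the sites with SSRP1 was 2.65 (1.83 to 3.84) with strata of width and 2.39 (1.67 to 3.40) with strata of GC content. The sites without SSRP1 thus carried the Alu word about as often as nearby DNA did. Reads were aligned by Bowtie2 at its defaults, and the sources used here do not state how reads that match several copies were treated afterwards. The part of such reads in these values was not tested.

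The sites with SSRP1 elsewhere in their acetylated region were set beside the rest for 5 motifs. For the 645 such sites the ETS core was in 6.98% of windows (5.13 to 9.22), against 5.997% (5.06 to 7.04) for the 2318 whose H3K27ac peak held no SSRP1. CAGCTG was in 20.9% (17.9 to 24.3), against 18.3% (16.8 to 20.0), and the GC box in 14.4% (11.8 to 17.4), against 13.03% (11.7 to 14.5). AP-1 sites were in 3.41% (2.15 to 5.12), against 4.79% (3.96 to 5.74). The Alu word was in 4.19% (2.78 to 6.03), against 7.16% (6.14 to 8.29), and only the intervals of the Alu word did not overlap. The median FLI1 width was 309 bp, against 312 bp, while the median H3K27ac width was 2953 bp, against 742 bp.

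The sites were spread over all 23 chromosomes analysed. Their density had a median of 0.899 per Mb, with the lowest on the X chromosome at 0.174 and the highest on chromosome 19 at 2.15. Chromosome 8 had 1.94 per Mb, or 2.16 times the median chromosome, beside 2.67 times for all FLI1 peaks, 1.27 times for SSRP1 and 1.16 times for H3K27ac. Of the acetylated distal FLI1 peaks on chromosome 8, 62.7% (58.1 to 67.2) were without SSRP1, near the median chromosome at 59.6%. This share was lowest on chromosome 19, at 46.5% (40.5 to 52.6), and highest on chromosome 10, at 72.5% (61.4 to 81.9). Chromosome 10 also had low densities of FLI1 peaks, at 1.79 per Mb, and of SSRP1 peaks, at 1.57 per Mb. DNA copy number was not measured, and its part in these densities was not tested.

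**Figure D4:**
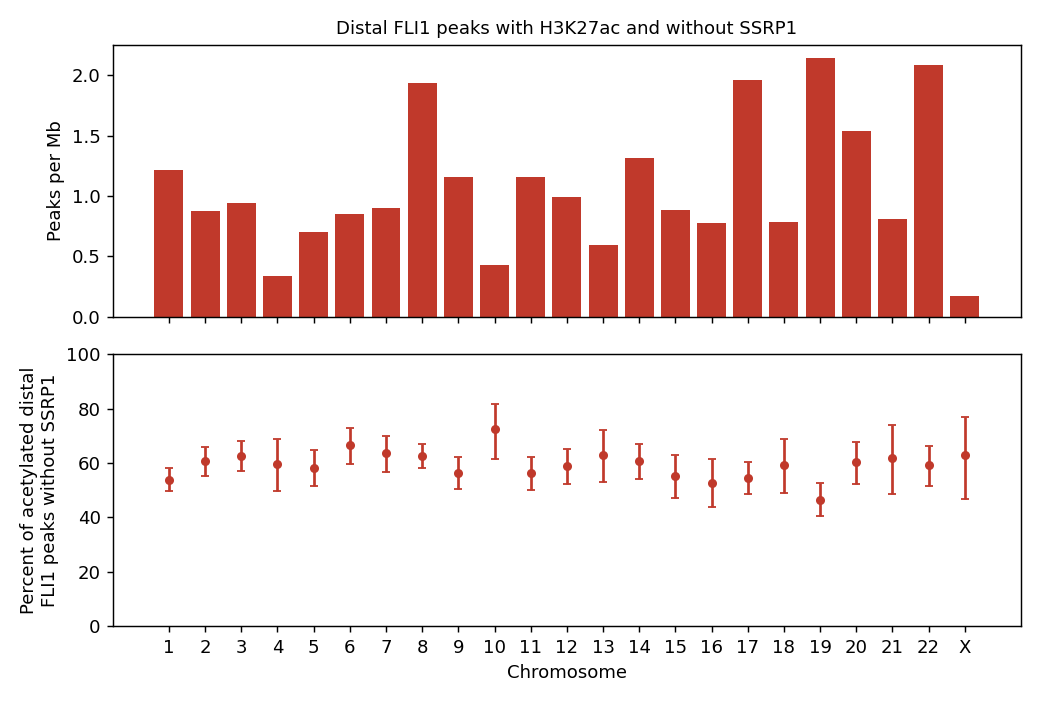
Top, sites without SSRP1 per Mb by chromosome; bottom, the percent of acetylated distal FLI1 peaks without SSRP1, with 95% exact binomial intervals. Density was 1.94 per Mb on chromosome 8 against a median of 0.899, while the share without SSRP1 there was 62.7% against a median of 59.6%.

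The nearest protein-coding TSS within 100 kb assigned the sites to 1423 of 20090 genes, 7.08%. Of these genes 983 had 1 site, 258 had 2 and 98 had 3. No distal acetylated FLI1 peak with SSRP1 was nearest to 934 of them, while 489 had both kinds, and 587 other genes had only the kind with SSRP1. H3K27ac lay within 2.5 kb of a TSS of 74.4% of the 1423 genes (72.0 to 76.6), against 57.9% of all genes. SSRP1 did so at 58.3% (55.7 to 60.9), against 35.8%, and FLI1 at 48.1% (45.4 to 50.7), against 29.0%. Among genes with an acetylated promoter, SSRP1 was at the promoter of 69.3% (65.6 to 72.8) of those with a site and no distal peak with SSRP1. It was at 69.6% (65.1 to 73.9) of genes whose distal acetylated peaks all had SSRP1, and at 52.2% (51.3 to 53.2) of genes with no such peak. So the lack of an SSRP1 peak at the distal site did not go with a lack of SSRP1 at the promoter of the nearest gene. The nearest TSS is a convention and need not be the gene that a site acts on.

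MYOM2, which encodes a myomesin of the muscle sarcomere, had the most sites. It lies on chromosome 8, where the density was 2.16 times the median chromosome for sites and 2.67 times for all FLI1 peaks. The part of that density in its count was not tested. All 15 lay in its own introns, 18.9 to 87.7 kb from the nearest TSS (chr8:2012100-2081413), in 12 H3K27ac peaks, with FLI1 widths of 227 to 531 bp. Its promoter had FLI1 but neither H3K27ac nor SSRP1, and 1 SSRP1 peak lay in the whole span. RXRA, the retinoid X receptor gene, followed with 11 sites and 12 distal acetylated FLI1 peaks with SSRP1. TBC1D16, a Rab GTPase-activating protein gene, had 10 sites and 5 with SSRP1, and RUNX3, a Runt-domain transcription factor gene, had 10 and 3. CRB2, a Crumbs family polarity gene, had 8 sites outside its gene body, no distal acetylated FLI1 peak with SSRP1, and no FLI1, H3K27ac or SSRP1 at its TSS. MYOM2 and CRB2 were thus the only genes of the leading 10 with no H3K27ac at the promoter.

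The other leading genes carried H3K27ac and SSRP1 at their promoters. EPHB3, a receptor for ephrin-B ligands, had 9 sites and 6 distal acetylated FLI1 peaks with SSRP1. PAX7, a paired-box factor of muscle stem cells and neural crest that is expressed in Ewing sarcoma, had 9 and 3, with its sites 16.4 to 53.0 kb from the TSS. FOS, which encodes a subunit of AP-1, had 9 and 3, and its 9 sites lay outside the gene body at 9.21 to 41.2 kb from the TSS. PRMT8, an arginine methyltransferase gene, had 9 and 1, and ANKRD9, an ankyrin repeat gene, had 9 and 3. Over all genes, 43 had at least 5 sites, of which 37 had H3K27ac and 30 had SSRP1 at the TSS, and 9 had no distal acetylated FLI1 peak with SSRP1. Of the 1423 genes with at least 1 site, 1058 had H3K27ac and 830 had SSRP1 at the TSS, and 934 had no such distal peak. Among all protein-coding genes, 57.9% had H3K27ac and 35.8% had SSRP1 at the TSS.

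Of 40 genes listed from general knowledge as activated by EWS-FLI1, 15 had at least 1 site, 37.5% (22.7 to 54.2), beside the 7.08% of all genes. The same number, 15, had a distal acetylated FLI1 peak with SSRP1, beside 5.36% of all genes, and 11 had both kinds. Counting every gene with any TSS within 100 kb of a site gave 17 of the 40, 42.5%, beside 18.9% of all genes. The excess of the list over all genes was smaller by that assignment. Peaks on longer GGAA repeats, which several of these genes are known for, were counted in neither kind. CCND1, the gene of cyclin D1, had 4 sites and 4 with SSRP1, the nearest site 6.44 kb upstream of the TSS (chr11:69449057-69449488, 432 bp wide). POU3F1 had 4 sites and 8 with SSRP1. HES1, a Notch target gene, had 3 and 4, and PRKCB, a protein kinase C gene, had 3 and 2, with the nearest site of PRKCB in its own intron 21.2 kb from the TSS. NKX2-2, a homeobox factor required for transformation by EWS-FLI1, had 1 site 69.0 kb upstream and 7 with SSRP1. JAK1, a cytokine receptor kinase gene, had 3 and 2, and EZH2, the Polycomb methyltransferase gene, had 3 and 1.

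Among the 15 activated genes with a site, 11 also had a distal acetylated FLI1 peak with SSRP1, and the rest had none. Over all 1423 genes with a site, 934 had none, so having none was less frequent in this list. Having none was also less frequent among genes with more sites, at 202 of 440 genes with at least 2 and 61 of 182 with at least 3. The 15 activated genes held 40 sites, and the part of site number in this difference was not tested. KIT, a receptor tyrosine kinase gene, had 1 site in its own intron 18.0 kb from the TSS (chr4:55542086-55542562, 477 bp wide) and none with SSRP1. VRK1, a nuclear kinase gene, had 1 site 54.4 kb upstream and none with SSRP1. CD99, which encodes the surface antigen used to diagnose Ewing sarcoma, and its neighbour XG had 2 sites each and none with SSRP1, the nearest 12.3 and 9.44 kb from the TSS in their own introns. PPP1R1A, a phosphatase inhibitor gene, had 2 and 2, while BCL11B, a zinc finger transcription factor gene, and FCGRT, an Fc receptor gene, had 1 site each with 2 and 1 with SSRP1. H3K27ac lay at the TSS of 36 of the 40 genes, beside 57.9% of all genes and 74.4% of the 1423 genes with a site.

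The 22 transcription factor genes of the Ewing core list gave 7 with a site, 31.8% (13.9 to 54.9), beside the 7.08% of all genes. A distal peak with SSRP1 was found for 8 of the 22. KLF15, a Krüppel-like factor gene, had 4 sites and none with SSRP1, the nearest 63.3 kb from the TSS (chr3:126012673-126012971, 299 bp wide). OTX2 had 1 site 98.0 kb from the TSS, and ZEB2, a repressor of epithelial genes, had 1 site 3.89 kb upstream, both with none with SSRP1. PAX7, POU3F1, NKX2-2 and BCL11B also belong to the activated list. Of 24 genes repressed by EWS-FLI1 or typical of mesenchymal cells, 1 had a site, 4.17% (0.105 to 21.1), which is near the 7.08% of all genes. It was TNC, the gene of the matrix protein tenascin C, with a peak of 260 bp in its intron.

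Of 32 Wnt and Hedgehog genes 9 had a site, 28.1% (13.7 to 46.7), beside the 7.08% of all genes, and 5 had a distal peak with SSRP1. The 9 were the Wnt receptors FZD1, FZD2, FZD7, ROR1 and ROR2, the ligand WNT5A, the Dickkopf gene DKK3 and the transcription factors LEF1 and GLI2. GLI2, a Hedgehog effector, had 3 sites and none with SSRP1, the nearest 4.90 kb into the gene. Of 19 IGF and insulin genes 6 had a site, 31.6% (12.6 to 56.6), beside the same 7.08%, and 4 had a distal peak with SSRP1. The 6 were INSR, IRS1, PIK3R1, IGFBP2, IGF2BP1 and IGF2BP3. The insulin receptor gene INSR had 1 of each kind, while the adaptor IRS1 had 1 site 7.83 kb from the TSS and none with SSRP1.

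Of 27 TGF-beta and BMP genes 6 had a site, 22.2% (8.62 to 42.3), beside the 7.08% of all genes, and 7 had a distal peak with SSRP1. The 6 included the signal transducers SMAD2 and SMAD3 and the inhibitors SMAD6 and SMAD7. Of 43 axon guidance genes 7 had a site, 16.3% (6.81 to 30.7), an interval that includes the 7.08%, and 7 had a distal peak with SSRP1. The netrin receptor gene UNC5B had 4 sites and 2 with SSRP1, the nearest site 4.36 kb into the gene. Of 22 actin and adhesion genes 5 had a site, 22.7% (7.82 to 45.4), and 4 had a distal peak with SSRP1. Among the 5 were the integrin gene ITGA5 with 2 sites and the alpha-catenin gene CTNNA1 with 3. Of 30 potassium channel genes 4 had a site, 13.3% (3.76 to 30.7), an interval that also includes the 7.08%, and 2 had a distal peak with SSRP1.

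The 20 DNA replication genes had no site of either kind, a share whose interval reaches 16.8% and so includes the 7.08% of all genes. All 20 had H3K27ac at the TSS. Histone chaperone genes, FACT included, had 1 of 15 with a site, ASF1B, against 2 with SSRP1, and 6.67% is near the share of all genes. Among marker genes of other cell types 3 of 23 had a site, 13.04% (2.78 to 33.6), an interval that includes the 7.08%. They were the endothelial CDH5, the epithelial KRT8 and the fibroblast PDGFRB, and 2 of the 23 had H3K27ac at the TSS. All 10 Ewing sarcoma markers had it, against 57.9% of all genes. The intervals of most lists are wide, and the lists were not compared with each other by a test.

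**Figure D5:**
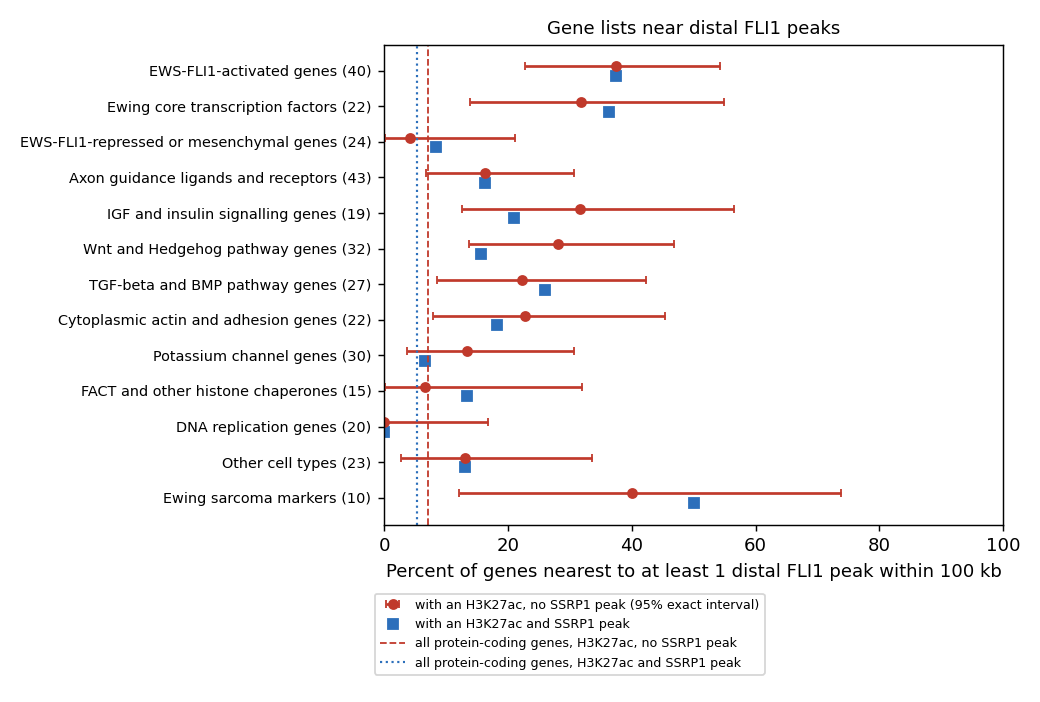
Percent of each gene list with at least 1 distal acetylated FLI1 peak without SSRP1, as circles with 95% exact binomial intervals, and with at least 1 such peak with SSRP1, as squares. Vertical lines give the share of all protein-coding genes for each kind, 7.08% without SSRP1 (dashed) and 5.36% with SSRP1 (dotted). EWS-FLI1-activated genes stood at 37.5% for both kinds, and DNA replication genes at 0.

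The 10 widest FLI1 peaks among the sites lay 6.08 to 1006 kb from the nearest protein-coding TSS. The widest, 1398 bp (chr16:3995808-3997205), lay 65.1 kb upstream of CREBBP, the gene of the acetyltransferase CBP, and covered a TSS of the lncRNA LINC02861. The next was a peak of 1304 bp 219 kb from CEP170, a centrosomal protein gene. A peak of 1197 bp lay 22.03 kb from CCR7, a chemokine receptor gene, and one of 1188 bp lay 11.4 kb upstream of IRF2BPL, where it covered a TSS of LINC02288. The remaining 6 of the 10 widest, from 1159 to 1001 bp, were nearest to NPLOC4, RGS10, LHX3, PHLDA3, SPIDR and C1QTNF3-AMACR. The NPLOC4 peak touched an SSRP1 peak by less than the 20% of the rule, and the CCR7 peak lay 0.438 kb from one.

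The acetylated domains that held the most sites were broad and, with 1 exception among 5, held SSRP1 elsewhere. The widest of them covered 18177 bp in introns of PDIA5 (chr3:122861359-122879535) and held 5 sites among 7 FLI1 peaks. A domain of 9865 bp, whose sites had PPP1R26, a phosphatase regulatory subunit gene, as the nearest TSS at 134 to 142 kb, also held 5, among 6 FLI1 peaks. A domain of 7712 bp with its sites 18.0 to 23.7 kb from CCR7 held 5 of 6. A domain of 9884 bp, with its sites 61.9 to 69.7 kb from ALOX5AP, which encodes an activator of leukotriene synthesis, held 4 of 5. A domain of 8154 bp (chr11:10622065-10630218) held 4 FLI1 peaks, all of them sites, and no SSRP1 peak. Its sites lay in introns, with IRAG1 and LYVE1 as host genes. The nearest TSS, 33.2 to 38.7 kb away, was that of LYVE1, a hyaluronan receptor gene of lymphatic endothelium.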

How the data were processed

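ChIP-seq of FLI1, SSRP1 and H3K27ac was done in SK-N-MC cells, 1 library each, beside 1 input library. Micrococcal nuclease and then sonication cut the chromatin, per the series' design text. The same text gives alignment to hg19 by Bowtie2 at its defaults and peak calling over input by MACS2, with q-values held below 0.05. The submitters' processing notes give MACS2 as version 2.2.7.1. Nuclease digestion favours nucleosomal fragments, which can change which sites give peaks. The sources used here do not state how duplicate or multiply mapped reads were treated after alignment.

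The deposited lists give each peak's coordinates and name and no height, p-value or q-value. Read depth is unknown from them, and the authors made 1 list for each library. Lines that repeat an interval under another summit letter were merged. This left 36539 peaks of 38324 lines for FLI1, 19955 of 23078 for SSRP1 and 37271 of 62198 for H3K27ac. Coordinates are 1-based in hg19.

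Peaks were shared when at least 20% of either was covered. TSSs were those of basic transcripts of 20090 protein-coding genes of GENCODE release 44 mapped to GRCh37. Motifs were exact words on either strand in the central 200 bp of the GRCh37 sequence, set beside the windows moved by 10 kb. Odds ratios are Mantel-Haenszel over 10 strata, with Robins-Breslow-Greenland intervals, and were checked on simulated data. Genes were the nearest protein-coding TSS within 100 kb. PECAM1 was not matched. The chaperone gene SPTY2D1, listed under an older symbol that matched another gene, was corrected after the values were seen, which changed no count of sites.

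Members, gene lists, motifs and comparisons were chosen with earlier results of these data known. The Alu word, the split by SSRP1 elsewhere in the H3K27ac peak and the windows without the Alu word were added after the data were seen. Named by rule were the 10 genes with the most sites, the activated and core genes with a site, the site nearest to a listed gene, the 10 widest sites, the 5 H3K27ac peaks holding most sites and 5 sequences. The sequence of 1 further site is not reported here. Alternatives were other overlap minima, TSS distances, motif windows, annotations and strata. Software was Python 3.11.15 with pandas 2.3.3, pysam 0.24.0, numpy 2.4.6, matplotlib 3.10.9 and scipy 1.17.1.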

Additional observations from a re-analysis of the deposited data

Results flagged for a closer look

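On contigs not placed on a chromosome, which the comparisons did not use, 15 of 226 FLI1 peaks met H3K27ac and no SSRP1, 6.64% (95% exact binomial interval 3.76 to 10.7). They were singled out because they lie in data outside the main measurement, and no TSS distance was applied to them.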

How the results depend on the processing

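Each target had 1 library, so no library could be left out. No paired analysis was possible because each target had 1 library. A stricter peak threshold was not run, since the lists give no strength, and wider peaks stood in for it. With an overlap of 20% of both peaks the sites numbered 1960, with medians of 328 bp for FLI1 and 633 bp for H3K27ac width, SSRP1 elsewhere in 6.84% and a TSS reached by 0.867%. SSRP1 elsewhere was 19.5% with an overlap of 1 bp, 26.9% with 50% of either (median H3K27ac width 1095 bp) and 23.5% with a TSS distance of 1 kb, and a TSS was reached by 5.96% at 1 kb and 1.5% at 5 kb. The ETS core was at 9.65% and CAGCTG at 31.3% in windows of 400 bp, at 9.08% and 29.1% in whole peaks, and the ETS core at 7.39% in sites of at least median width. With strata of GC content the GC box odds ratio was 0.963 and that of the homeobox word reversed to 0.738, against 1.5 with strata of width. Introns held 36.1% and intergenic DNA 60.9% by canonical transcripts, and 59.0% and 38.0% with lncRNA genes counted. Any TSS within 100 kb gave 3792 genes, and the chromosome 8 ratio was 1.05 as a share of acetylated distal FLI1 peaks. Of the main results under alternatives, 44 stayed within their limits and 23 moved; of the others, 119 stayed, 44 moved and 1 reversed.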
